A study of Mus musculus with 3 samples.

Results

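The 9 genes described here are the CD3 chains and the first signalling proteins of the T cell receptor: Cd247, Lck, Zap70, Lat and Cd2, which natural killer (NK) cells also use, and Cd3g, Cd3d, Cd3e and Cd28, classed here as T-restricted. They were taken by name, as 9 of the 55536 genes listed, and all 9 were found in every library. The libraries are total RNA-seq of 1 group, blood monocytes from adult C57BL/6J mice of 5 to 6 weeks, numbered as biological replicates 1, 2 and 3. Each was made from 100 ng of RNA after removal of ribosomal RNA, with no treatment or genotype recorded. No source used here gives the gate of the sort, and all 3 libraries carry the same donor record, so a p-value reflects variation among 3 libraries that need not come from separate animals. Values are TPM, a level per transcript length scaled to a fixed total, and expected counts, the estimated reads behind it.

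A T cell receptor has no signalling tail of its own. It relies on CD3 gamma, delta and epsilon and on the zeta chain encoded by Cd247, whose tyrosine motifs are phosphorylated by the kinase Lck, bind the kinase Zap70 and lead to phosphorylation of the adaptor Lat. NK cells lack the receptor and its CD3 gamma, delta and epsilon chains at the surface. They couple the zeta chain to receptors such as NKp46 and use Lck, Zap70, Lat and the adhesion receptor CD2. Related parts in monocytes, though not in monocytes alone, are Lyn, Syk, Lat2 and the Fc receptor gamma chain.

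The libraries held 27.2, 26.5 and 19.9 M expected counts. At a length of 1000 bases, 1 TPM corresponded to 112, 121 and 76.0 counts. Rows that are not protein-coding genes take most of the TPM total, so that rescaling over protein-coding genes would raise every level 9.17, 10.2 and 9.35 times. All 7 monocyte markers listed and all 11 NK markers lay above 1 TPM in the test given below, against 2 of 10 T cell markers. Among other lists, 4 of 5 B cell, 3 of 4 platelet, 3 of 4 basophil and mast cell and 0 of 3 gamma-delta T cell markers did. The share among all genes tested was 43.2%. Library 3 stood apart: its summed level of the NK markers was 1788 TPM, against 722 and 612 TPM in libraries 1 and 2. In bulk RNA, fewer cells of a type and less RNA per cell cannot be told apart.

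On average the members shared with NK cells were higher than the T-restricted ones: Cd2, Lck and Cd247 led, Cd3d and Cd3e were scarce, and Zap70, Lat, Cd28 and Cd3g overlapped between them. In each library the mean of log2(TPM + 0.1) over Cd247, Lck, Zap70, Lat and Cd2 exceeded that over Cd3d, Cd3e, Cd3g and Cd28, by 3.09, 2.79 and 3.85 in libraries 1, 2 and 3. The mean difference was 3.24 ± 0.54 (log2, SD, n = 3), a 9.47-fold difference of geometric means. No p is given, since the genes were chosen with results of these data known. Without library 3 the difference was 2.94, without Cd28 3.76, and with a pseudocount of 1 TPM in place of 0.1 it was 2.24. Tested against a level of 1 TPM, 7 of the 9 members were above (all but Cd3d and Cd3e) and 0 below, at an adjusted p under 0.05 (edgeR quasi-likelihood test, Benjamini-Hochberg over 17664 genes). Of all genes tested, 43.2% were above and 6.36% below. Among the protein-coding genes tested, 54.1% were above and 6.02% below. At an unadjusted p under 0.05 likewise 0 members were below. DESeq2 called 4 members above (Cd2, Lck, Cd247 and Zap70) and 0 below, giving no adjusted p for Cd3d and Cd3e, and limma called 7 above and 2 below. Without library 3, 4 members were above (Cd2, Lck, Cd247 and Cd28).

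**Figure D1:**
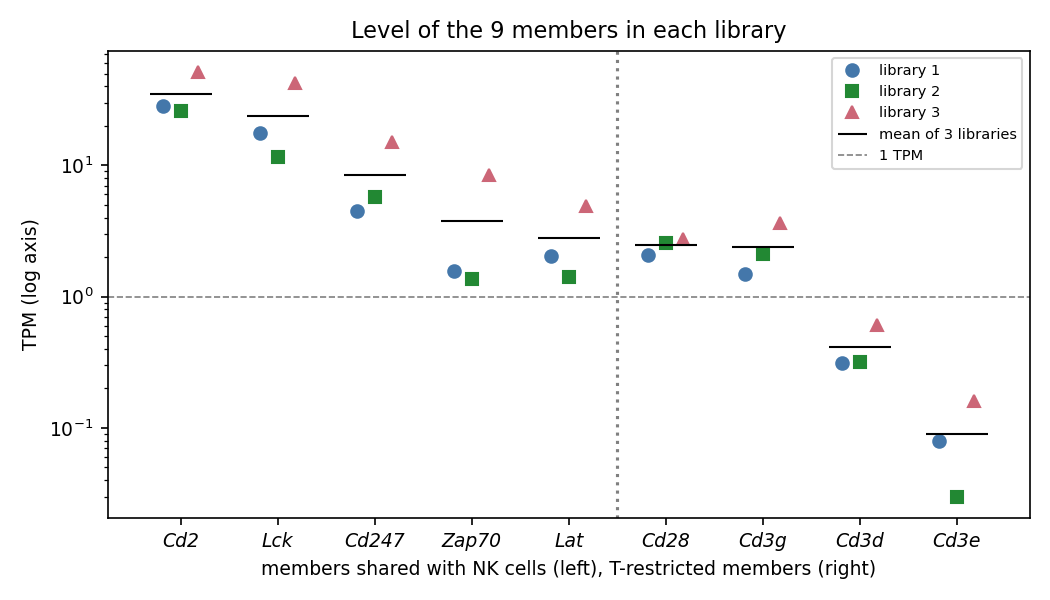
TPM (log axis) of the 9 members in libraries 1, 2 and 3 (points), with the mean of 3 libraries (bars) and 1 TPM (dashed line); members shared with NK cells stand left and T-restricted members right. Cd2 and Lck reach 51.4 and 42.5 TPM in library 3, while Cd3d and Cd3e lie below 1 TPM in all 3 libraries.

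In order of mean level, Cd2 came first with 35.2 TPM, then Lck with 23.8, Cd247 with 8.44, Zap70 with 3.78, Lat with 2.77, Cd28 with 2.46, Cd3g with 2.40, Cd3d with 0.413 and Cd3e with 0.090 TPM. Cd2 was above Lck, Lck above Cd247 and Cd247 above Zap70 within each of the 3 libraries, although their ranges over libraries overlapped. The levels of Zap70, Lat, Cd28 and Cd3g did not separate: Zap70 stood above Lat in 1 of 3 libraries, Lat above Cd28 in 1 and Cd28 above Cd3g in 2. In the gene tables the ranges of Cd3g and Cd3d did not overlap, nor did those of Cd3d and Cd3e. In the tables made from the reads, a second deposited quantification, those of Cd3g and Cd3d overlapped.

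Cd247 (chromosome 1, 165788681 to 165877277, plus strand, mm10) encodes the zeta chain, the part of the receptor complex that NK cells share. It had 4.51, 5.71 and 15.1 TPM in libraries 1, 2 and 3, from 752, 1027 and 1663 counts. Library 3 was high and the other libraries lay close together. Its log2 level over 1 TPM was 3.08 ± 0.32 (SE, edgeR adjusted p = 4.12e-07). Most of it was 1 transcript, Cd247-201, with 4.12, 5.02 and 12.5 TPM. The gene lies over others whose reads the counting could divide: Gm16565 on the same strand had 59.5, 53.0 and 131 counts and Pou2f1, a transcription factor gene on the opposite strand, 1459, 1369 and 1543. No source used here gives the strand setting of the counting.

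The 3 CD3 genes lie together on chromosome 9, between 44969572 and 45009627 (mm10), with 1354 bases between the divergent genes Cd3g and Cd3d. Cd3g (44969572 to 44980431, minus strand), the gamma chain, had 1.49, 2.11 and 3.61 TPM from 142, 183 and 196 counts. Its log2 level over 1 TPM was 1.26 ± 0.38 (SE, edgeR adjusted p = 0.00821), a call lost without library 3 (adjusted p = 0.0618) and with DESeq2 (adjusted p = 0.153; range over alternatives 1.3e-08 to 0.153). Cd3g was thus the one CD3 chain called above 1 TPM, though low beside the zeta chain in all 3 libraries.

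Cd3d (44981786 to 44987339, plus strand), the delta chain, had 0.31, 0.32 and 0.61 TPM from 51, 56 and 22 counts. Its highest TPM came from its fewest counts. In library 3, 4 counts were assigned to a 299-base retained-intron transcript, which alone gave 0.45 TPM, whereas the full-length transcript had 0.31, 0.32 and 0.17 TPM. Its log2 level, -1.28 ± 0.66 (SE), was not distinguishable from 1 TPM (edgeR adjusted p = 0.176).

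Cd3e (44998740 to 45009627, minus strand), the epsilon chain that pairs with both others, had 0.080, 0.030 and 0.16 TPM. These rest on 12, 4 and 16 counts, for which exact Poisson intervals (95%, counting error only) span 0.0429 to 0.145, 0.0069 to 0.0649 and 0.0943 to 0.268 TPM. Even the upper limits stayed below 1 TPM, yet the fit across libraries gave a log2 level of -3.46 ± 1.43 (SE, edgeR adjusted p = 0.165), which missed the threshold, while limma called it below (adjusted p = 0.000357; range over alternatives 0.000357 to 0.907). Cd247 exceeded Cd3e by 56.4, 190 and 94.4 times and Lck exceeded it by 219, 383 and 265 times in libraries 1, 2 and 3. Cd3g exceeded Cd3d by 4.81, 6.59 and 5.92 times and Cd3e by 18.6, 70.3 and 22.6 times in the gene tables. In the tables made from the reads, a comparison added after the data were seen, Cd3g exceeded Cd3d by only 1.73, 1.79 and 1.72 times and Cd3e by 28.3, 83.1 and 17.6 times. The epsilon chain was thus the lowest of the CD3 chains in both quantifications, whereas the gap between the gamma and delta chains depended on the table.

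Levels of the receptor chains that the CD3 proteins accompany were also uneven. Trac, the alpha constant region, had 0.81, 0.52 and 1.14 TPM, and Trbc1, a beta constant region, 12.7, 15.3 and 39.6 TPM. Trbc2, the other beta constant region listed, had 5.31, 5.87 and 6.65 TPM, with a smaller rise in library 3 than Trbc1.

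Cd3d differed between the authors' deposited quantifications. The second set of deposited tables, estimated from the reads on the same annotation, gave Cd3d 221, 207 and 214 counts where the gene tables gave 51, 56 and 22. That is 4.33, 3.70 and 9.71 times as many, while the median over 8298 protein-coding genes with a mean TPM of 1 or more was 1.31, 1.24 and 1.26 times and 0.205%, 0.302% and 0.169% of these genes exceeded 4 times. The other 8 members lay between 1.00 and 1.59 times. In the second tables Cd3d had 1.76, 1.51 and 3.51 TPM, Cd3g 3.04, 2.72 and 6.03 TPM and Cd3e 0.107, 0.0327 and 0.343 TPM, so Cd3e was again the lowest of the chains. On those counts, an alternative added after the data were seen, Cd3d was called above 1 TPM (log2 level 1.17, edgeR adjusted p = 0.0188; range over alternatives 0.00692 to 0.732), a reversal of the sign in the gene tables. NK-shared minus T-restricted members was then 3.03 (log2).

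**Figure D2:**
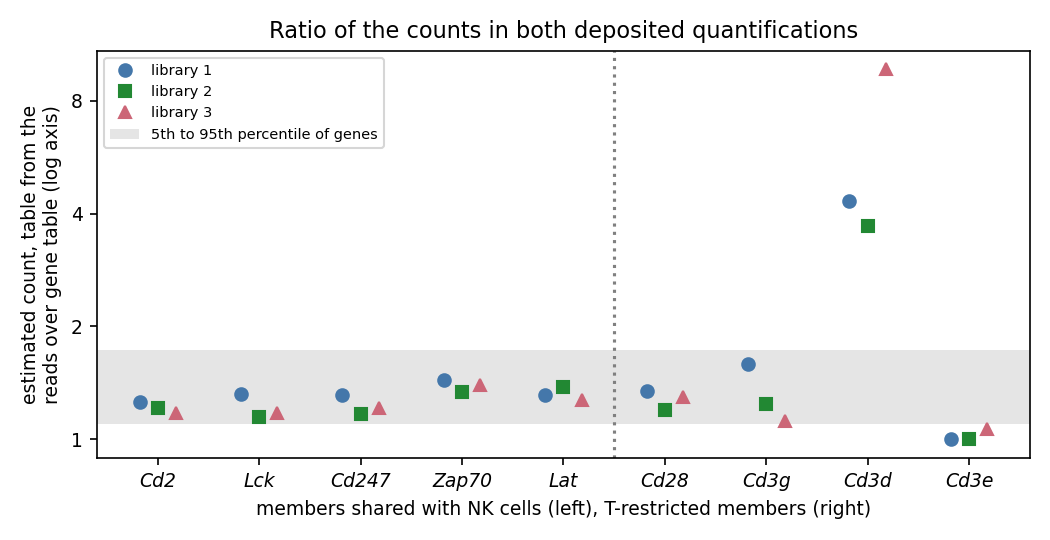
Estimated count of each member in the deposited table made from the reads divided by its count in the deposited gene table (log axis), by library; the grey band spans the lowest 5th to the highest 95th percentile of 8298 protein-coding genes over libraries. Cd3d lies at 4.33, 3.70 and 9.71, above the band, and the other members lie between 1.00 and 1.59.

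Lck (chromosome 4, 129548344 to 129573641, minus strand, mm10), the kinase that starts the cascade, had 17.5, 11.5 and 42.5 TPM from 1749, 1848 and 3639 counts. Library 3 was high, and library 1 exceeded library 2 in TPM despite fewer counts. Its log2 level over 1 TPM was 4.57 ± 0.32 (SE, edgeR adjusted p = 1.8e-09). A large part of this level was assigned to transcripts that keep an intron: 73.1%, 44.5% and 54.4% of Lck TPM, against a median of 3.76%, 3.86% and 8.30% over the 8298 genes above and a mean of 14.8%, 15.2% and 16.6%. Protein-coding transcripts of Lck had 4.71, 6.37 and 19.4 TPM, and on these library 2 exceeded library 1. By count rather than TPM the retained-intron share was 40.9%, 18.4% and 21.9%, since these transcripts are short.

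Lck is transcribed from a distal and a proximal start, with 15250 bases between the starts of their transcripts that carry counts. The proximal start is known as the one most used in thymocytes and the distal one in mature T cells. The proximal transcript with counts, Lck-201, begins at 129558391. The distal transcript had 3.49, 6.14 and 17.4 TPM and the proximal ones 1.22, 0.23 and 1.96 TPM in libraries 1, 2 and 3. The distal start thus took 74.1%, 96.4% and 89.9% of the protein-coding Lck level assigned to either start, and 75.9%, 96.4% and 83.1% in the tables made from the reads. The distal transcript was the larger in all 3 libraries, and the proximal one had 276, 55.7 and 297 counts.

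To show what lies at these starts, 300 bases (250 before and 50 after the start, RefSeq, GRCm38.p6, which is mm10) are printed for both Lck starts, and for Cd247 and Cd3e, the highest and the lowest of the CD3 and zeta chain genes. Capitals mark the ETS-type motif CAGGAAGT (or ACTTCCTG on the other strand) and the RUNX-type motif TGTGGTT (or AACCACA), which were chosen after the sequences were seen. The windows are chr4:129573592-129573891 (minus), chr4:129558323-129558622 (minus), chr1:165788431-165788730 (plus) and chr9:45009562-45009861 (minus).
Lck distal: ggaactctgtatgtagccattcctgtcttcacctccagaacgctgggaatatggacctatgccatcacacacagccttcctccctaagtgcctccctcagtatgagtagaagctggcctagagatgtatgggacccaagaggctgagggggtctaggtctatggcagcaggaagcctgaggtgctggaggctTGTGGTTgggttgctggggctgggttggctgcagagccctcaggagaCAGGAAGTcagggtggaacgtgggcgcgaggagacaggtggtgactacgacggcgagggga
Lck proximal: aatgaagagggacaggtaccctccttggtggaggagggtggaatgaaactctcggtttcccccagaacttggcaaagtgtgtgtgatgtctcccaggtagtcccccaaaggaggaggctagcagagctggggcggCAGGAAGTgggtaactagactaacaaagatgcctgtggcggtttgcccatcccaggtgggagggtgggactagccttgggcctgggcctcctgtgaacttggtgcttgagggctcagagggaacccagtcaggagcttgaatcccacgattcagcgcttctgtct
Cd247: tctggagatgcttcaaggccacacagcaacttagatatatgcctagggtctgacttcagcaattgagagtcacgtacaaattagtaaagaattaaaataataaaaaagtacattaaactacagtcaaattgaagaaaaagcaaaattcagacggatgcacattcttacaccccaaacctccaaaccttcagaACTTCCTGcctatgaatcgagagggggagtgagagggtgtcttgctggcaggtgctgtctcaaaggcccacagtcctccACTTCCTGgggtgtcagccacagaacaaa
Cd3e: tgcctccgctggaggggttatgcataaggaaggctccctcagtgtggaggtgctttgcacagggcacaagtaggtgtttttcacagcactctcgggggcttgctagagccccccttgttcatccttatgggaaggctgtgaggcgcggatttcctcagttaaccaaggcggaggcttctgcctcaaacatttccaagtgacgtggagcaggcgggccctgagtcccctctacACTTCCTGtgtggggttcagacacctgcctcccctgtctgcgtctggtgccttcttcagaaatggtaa
The ETS-type motif begins 11 bases before the distal Lck start, 115 before the proximal RefSeq start (129558372, which is 19 bases downstream of that of Lck-201, so 96 before Lck-201), 58 before and 21 after the Cd247 start, and 18 before the Cd3e start. The RUNX-type motif, found in the distal Lck window, begins 58 bases before that start and does not overlap the ETS-type match. Windows were found for 7 members, 10 windows in all, and 4 of them, of which 2 are those of Lck, held the ETS-type letters; 1 held the RUNX-type letters. Over 32851 mouse promoters of the same length, 3.33% hold the ETS-type and 5.27% the RUNX-type letters. As the letters were picked from these same windows, nothing is read from the counts beside these shares. A match is a description of the sequence and not of binding.

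Zap70 (chromosome 1, 36761798 to 36782818, plus strand), the kinase that docks on the phosphorylated zeta chain, had 1.56, 1.36 and 8.41 TPM from 282, 232 and 860 counts. Library 3 stood far above the others, and Zap70 had the largest coefficient of variation of the 9 members, 106%. Its log2 level over 1 TPM was 1.91 ± 0.47 (SE, edgeR adjusted p = 0.0013). The call rests on library 3: without it the log2 level was 0.55 (adjusted p = 0.157). Retained-intron transcripts took 43.6%, 74.3% and 70.0% of Zap70 TPM, so that protein-coding ones had 0.88, 0.35 and 2.52 TPM. On protein-coding transcripts alone, an alternative added after the data were seen, Zap70 was not distinguishable from 1 TPM (log2 level 0.32, edgeR adjusted p = 0.56; range over alternatives 1.27e-08 to 0.56).

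Lat (chromosome 7, 126363824 to 126369570, minus strand), the membrane adaptor phosphorylated by ZAP-70, had 2.03, 1.40 and 4.89 TPM from 242, 183 and 400 counts. Its level was again highest in library 3. The log2 level over 1 TPM was 1.47 ± 0.38 (SE, edgeR adjusted p = 0.00277), lost without library 3 (adjusted p = 0.0596) and with DESeq2 (adjusted p = 0.0923; range over alternatives 6.57e-09 to 0.0923). Lat is also a protein of platelets and mast cells. The 4 platelet markers listed summed to 71.9 TPM in library 3, against 12.7 and 9.71 TPM in libraries 1 and 2, with none at 0, and the 4 basophil and mast cell markers to 4.46, against 13.6 and 17.1 TPM, with none at 0. Their part in the level of Lat was not tested.

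Cd2 (chromosome 3, 101275899 to 101287939, minus strand), an adhesion receptor of T and NK cells, had 28.4, 25.7 and 51.4 TPM from 3024, 3046 and 3676 counts. It was the highest member in every library, at a log2 level of 5.14 ± 0.23 over 1 TPM (SE, edgeR adjusted p = 2.51e-11). Protein-coding transcripts held 91.3%, 95.2% and 92.8% of its TPM. Its ligand in the mouse, CD48, is carried by most leukocytes: Cd48 had 29.2, 30.8 and 32.8 TPM, nearly level across libraries.

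Cd28 (chromosome 1, 60716800 to 60773359, plus strand), the costimulatory receptor of T cells, was the steadiest member. It had 2.08, 2.54 and 2.75 TPM from 786, 1088 and 708 counts, the smallest coefficient of variation of the 9 members, 13.9%. Its log2 level over 1 TPM was 1.30 ± 0.22 (SE, edgeR adjusted p = 0.000141) and 1.21 without library 3 (adjusted p = 6.26e-05), while DESeq2 gave an adjusted p of 0.118 (range over alternatives 6.66e-11 to 0.118). A single retained-intron transcript took 31.2%, 25.9% and 30.2% of its TPM. Of its ligands, which antigen-presenting cells carry, Cd86 had 6.64, 6.76 and 7.46 TPM and Cd80 0.70, 0.98 and 0.61 TPM. Cd2 exceeded Cd28 by 13.7, 10.1 and 18.7 times.

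**Figure D3:**
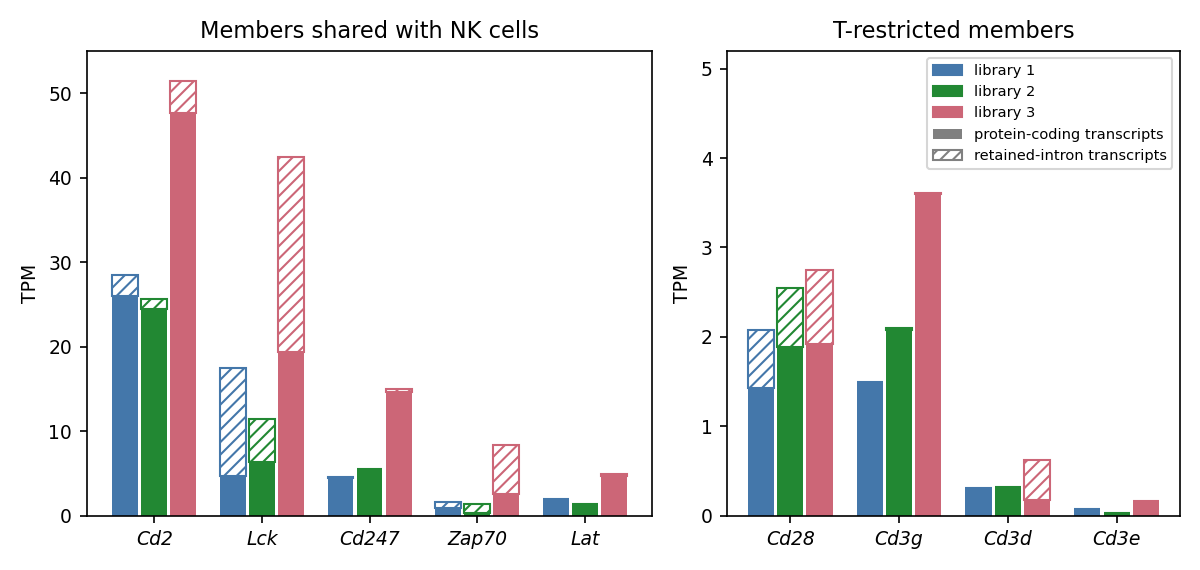
TPM of each member assigned to protein-coding transcripts (filled bars) and retained-intron transcripts (hatched, stacked on top) in libraries 1, 2 and 3; the panels have separate axes. Lck, Zap70 and Cd28 carry hatched parts in every library, Lat and Cd3g nearly none.

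In library 3 all 5 NK-shared members were higher than in libraries 1 and 2. For the T-restricted members this varied by gene and, for Cd3d, by the transcripts counted and the quantification used. The median protein-coding gene was higher in library 3 by 0.21 over library 1 and 0.37 over library 2 (log2), and differences are given relative to it. Zap70 was higher in library 3 by 2.15 over library 1 and 2.17 over library 2. Cd247 was higher by 1.51 and 1.02, Lck by 1.07 and 1.51, Lat by 1.02 and 1.36, and Cd2 by 0.64 and 0.63. With all transcripts counted, Zap70 stood out and Cd2 moved least. Protein-coding transcripts alone, an alternative added after the data were seen, gave 1.21 and 2.17 for Zap70 and 1.81 and 1.22 for Lck. Cd247 then had 1.47 and 1.01, Lat 0.98 and 1.32, and Cd2 0.66 and 0.59. On that basis Zap70 was below Lck and Cd247 in the difference from library 1, and Cd2 still moved least.

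Among T-restricted members the same differences were 1.01 and 0.38 for Cd3g, 0.58 and 0.39 for Cd3d, 0.32 and 0.63 for Cd3e, and 0.18 and -0.26 for Cd28. Medians were 1.07 and 1.36 for the 5 NK-shared members, against 0.45 and 0.38 for the 4 T-restricted ones. Cd3d turned with the transcripts counted. Over protein-coding ones alone in the quantification of the gene tables, an alternative added after the data were seen, it was lower in library 3. Its differences were -0.81 and -1.01, on 18 counts against 51 and 56. The median gene subtracted here still counted all transcripts. On this basis medians were 1.21 and 1.22 for the NK-shared members, against 0.26 and 0.02 for the T-restricted ones. In the tables made from the reads, protein-coding Cd3d transcripts instead had 1.76, 1.51 and 2.77 TPM in libraries 1, 2 and 3. There library 3 was highest. The 11 NK markers had medians of 1.54 and 1.37, with 11 of 11 higher in library 3, and the 10 T cell markers 0.17 and 0.47, with 6 of 10 higher. Other lists moved in library 3 as well: the 4 platelet markers had medians of 3.46 and 2.92, with 4 of 4 higher, and the 7 monocyte markers -0.49 and -0.43, with 3 of 7 higher. Summed levels of NK markers were 722, 612 and 1788 TPM in libraries 1, 2 and 3 those of T cell markers 20.4, 23.2 and 49.3 TPM, those of 3 gamma-delta T cell markers 0.77, 0.30 and 2.25 TPM, and those of the monocyte markers 2189, 1806 and 1265 TPM. Of the T cell markers Trbc1 made up most, and Cd5 and Cd8b1 were listed at 0 in library 2. Both comparisons share library 3, and there is 1 library on each side. Library 3 also had the widest recorded size range, 200 to 1000 bp, against 200 to 594 and 200 to 491 bp in libraries 1 and 2. It had 19160 genes with counts, against 16635 and 16810. Such library properties and NK cell, platelet or monocyte RNA cannot be told apart here, and their part in these differences was not tested. Between libraries 2 and 1 the NK-shared members differed by -0.44 to 0.49.

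**Figure D4:**
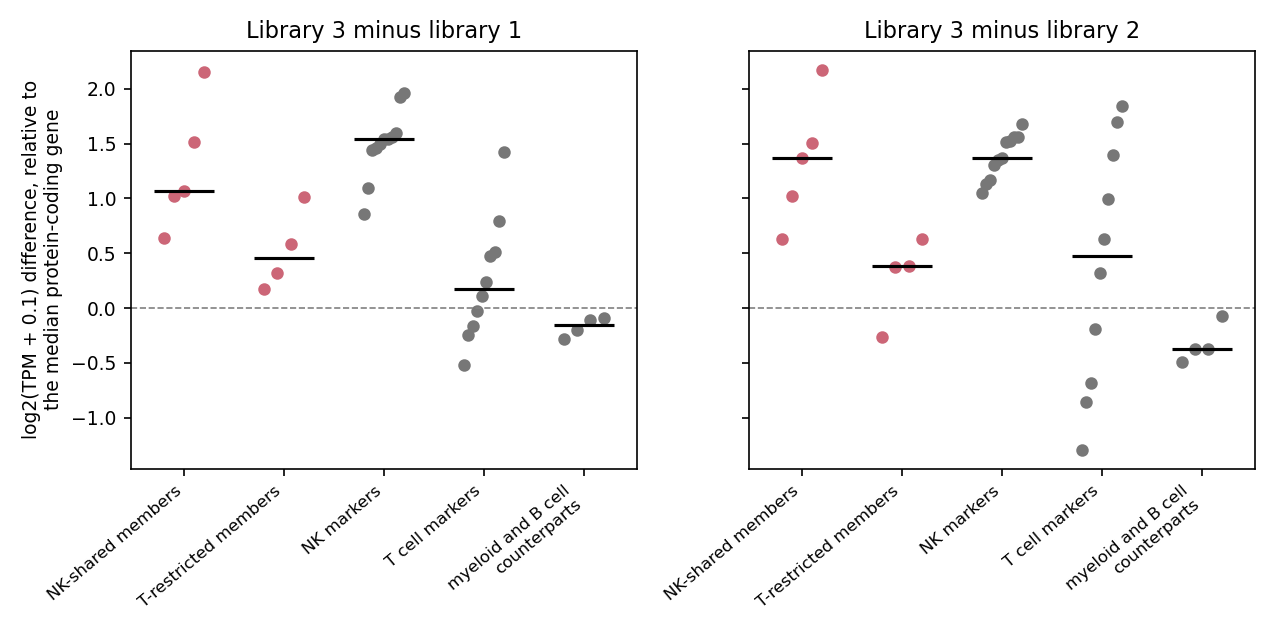
Difference in log2(TPM + 0.1) of library 3 minus library 1 (left) and minus library 2 (right), relative to the median protein-coding gene, for single genes (points) with list medians (bars). NK-shared members have medians of 1.07 and 1.36, T-restricted members 0.45 and 0.38, and the counterparts lie below 0. Cd3d falls below 0 when protein-coding transcripts alone are counted. In the tables made from the reads, its protein-coding TPM is highest in library 3.

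By deviation from their own mean over 3 libraries, the protein-coding genes most like Lck included Shmt2, a mitochondrial enzyme of serine metabolism, Cdca7l, Acrbp and the adaptor Lax1, at Euclidean distances of 0.0341 to 0.0786 (log2). Of 8291 candidates with a mean TPM of 1 or more, 9 lay within 0.1 of Lck. Those most like Cd28 were Ddx60, Rheb, Rps26, Rnaseh2a and Gbf1, at 0.00578 to 0.0178, with 166 within 0.1. Over the 11 NK markers the distance to Lck was 0.319 to 0.680 (median 0.392) and that to Cd28 was 0.927 to 1.52 (median 1.21). With 3 libraries such likeness is a description only.

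The partner of the zeta chain in NK cells, NKp46 (Ncr1), had 41.8, 39.8 and 133 TPM, which exceeded Cd247 by 9.26, 6.97 and 8.79 times. Fcgr3, a low-affinity Fc receptor of NK cells and monocytes alike, had 46.4, 40.7 and 27.8 TPM and was lowest in library 3.

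Each signalling member stood below its counterpart in all 3 libraries. Counterparts were Syk, Lyn and Lat2, relatives in myeloid and B cells, and Fcer1g, the Fc receptor gamma chain. Which cells the RNA of the counterparts came from was not tested. Zap70 minus its relative Syk was -4.19, -4.20 and -1.95 (log2 of TPM + 0.1), a mean of -3.45 ± 1.30 (SD, n = 3). Syk had 30.2, 26.6 and 32.8 TPM, level across libraries, so the smaller gap in library 3 came with the higher Zap70 there. Lck minus the Src family kinase Lyn was -1.43, -2.07 and -0.08, a mean of -1.19 ± 1.02 (SD, n = 3), with Lyn at 47.3, 48.7 and 44.8 TPM. In library 3 Lck and Lyn were nearly equal when all transcripts were counted. Counting protein-coding transcripts alone, Lck minus Lyn was -3.12, -2.67 and -0.91, a mean of -2.23.

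Lat minus the adaptor Lat2 was -3.25, -3.77 and -2.03, a mean of -3.01 ± 0.89 (SD, n = 3), with Lat2 at 20.1, 20.3 and 20.2 TPM. Cd247 minus the Fc receptor gamma chain Fcer1g was -4.32, -4.08 and -2.70, a mean of -3.70 ± 0.88 (SD, n = 3), with Fcer1g at 91.9, 98.4 and 98.4 TPM. Each of these 4 differences had the same sign in 3 of 3 libraries, and each gave p = 0.25 in the exact two-sided sign-flip test, the smallest value 3 libraries allow. Without library 3 they were -4.19 for Zap70 minus Syk, -1.75 for Lck minus Lyn, -3.51 for Lat minus Lat2 and -4.20 for Cd247 minus Fcer1g.

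**Figure D5:**
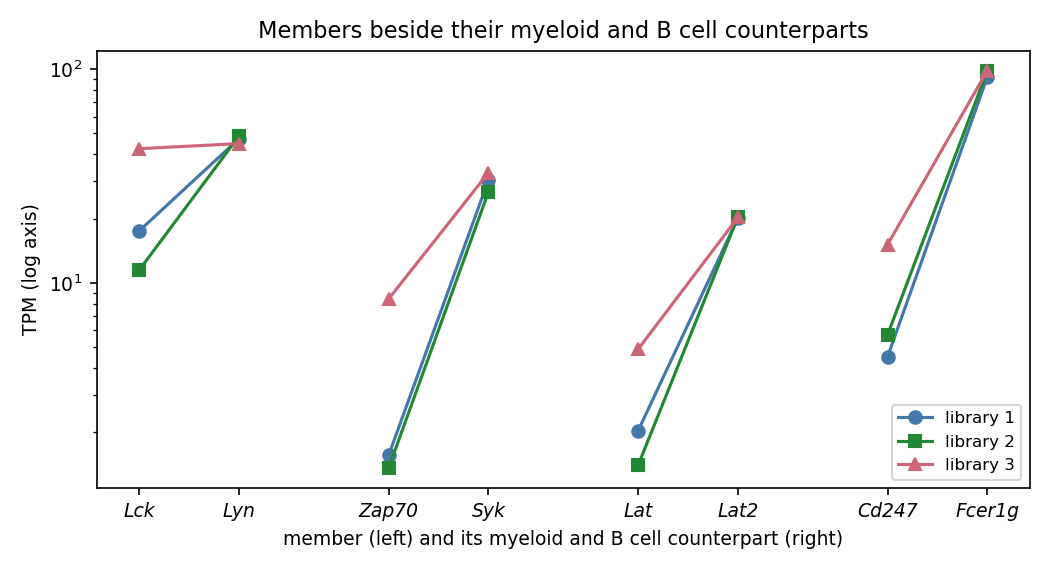
TPM (log axis) of Lck, Zap70, Lat and Cd247 (left of each pair) and of their counterparts (right), with a line for each library. Lyn, Syk and Lat2 are the myeloid and B cell relatives, and Fcer1g is the Fc receptor gamma chain. The counterparts are level across libraries while the members are highest in library 3, where Lck reaches 42.5 TPM beside 44.8 TPM for Lyn, all transcripts counted.

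Further proximal signalling genes were mostly above 1 TPM. Of 36 genes listed by role, 30 were above and 2 below (edgeR adjusted p under 0.05), against 43.2% above and 6.36% below among all genes tested. Their median log2 level over 1 TPM was 2.95, against 0.24 for all genes tested and 1.06 for protein-coding ones. The highest were the phosphatase CD45 (Ptprc) with 291, 252 and 396 TPM and the phosphatase SHP-1 (Ptpn6) with 201, 134 and 140 TPM. The adaptor ADAP (Fyb) came next with 47.1, 36.0 and 69.9 TPM.

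The 2 below 1 TPM were 5.56% of the list, near the 6.36% of all genes tested, so their number is not read as a trait of the list. Trat1, an adaptor that associates with the receptor, had 0.10, 0.030 and 0.050 TPM (edgeR adjusted p = 0.0479), and Themis, a regulator of thymocyte signalling, 0.070, 0.10 and 0.11 TPM (edgeR adjusted p = 0.0137). Both calls were lost under several settings, such as DESeq2 or leaving out library 2. Like Cd3e, both were at or under 0.16 TPM in every library.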

How the data were processed

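Total RNA of 3 monocyte libraries was quantified by the authors on mm10 with GENCODE M21 and, separately, M4, per the notes deposited with the files. The deposited expected counts are estimated reads per gene or transcript, and the deposited TPM were scaled by the authors over all rows, small RNAs included. Programs, versions and strand setting: not given in the sources used here. Numbered rows without a gene took 0.000571%, 9.04e-05% and 7.53e-05% of counts.

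Symbols came from the M21 transcript names. Expected counts were rounded and fitted with edgeR 4.0.16 (quasi-likelihood, intercept only, offset of the count that 1 TPM stands for, two-sided, summed count of 10 or more, Benjamini-Hochberg at 0.05). F was computed from the deviances of that fit. The test was run on simulated counts with a coefficient of variation of 0.788, where 2.15% of 2000 genes at 1 TPM were called. Of 100 genes at 4 TPM, 78% were called above, and of 100 at 0.25 TPM, 62% were called below. limma 3.58.1 on log2(TPM + 0.1) and DESeq2 1.42.0 were alternatives. Depth was 27.2, 26.5 and 19.9 M counts. Poisson intervals cover counting error alone and not the spread between libraries, and PCR copies were not marked.

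The members, lists and tests were chosen with earlier results of these data known. Named genes are the members, their ligands, partners and counterparts, the pathway genes called below 1 TPM and the 3 highest, and the 5 profiles nearest to Lck and to Cd28, of which 1 is not reported here. Trac, Trbc1, Trbc2, Cd5, Cd8b1, Gm16565 and Pou2f1 were named after their values were seen.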

Additional observations from a re-analysis of the deposited data

How the results depend on the processing

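The differences between members and counterparts kept their sign under the pseudocount, transcript, annotation and library alternatives run. NK-shared minus T-restricted members stayed positive and moved by more than 1 SD with a pseudocount of 1 TPM (2.24) and when members with a mean under 0.1 TPM were left out (2.50). Leaving out 1 library gave 2.94 to 3.47 for it, -4.19 to -3.07 for Zap70 minus Syk, -1.75 to -0.75 for Lck minus Lyn, -3.51 to -2.64 for Lat minus Lat2 and -4.20 to -3.39 for Cd247 minus Fcer1g. The number of members above 1 TPM was 4 with DESeq2, against 7, and 4 to 7 when leaving out 1 library, which gave 0 to 0 below. limma called 2 below. Of the other signalling genes, 30 to 30 were above when leaving out 1 library, and 2 below became 1 at a level of 0.5 TPM, with a summed count of 1 or more and with M4, 0 on the protein-coding scale, with DESeq2 and with protein-coding transcripts alone, and 0 to 1 when leaving out 1 library. Cd3d, at -1.28, had 1.97 on the protein-coding scale (edgeR adjusted p = 0.00692) and 1.17 in the tables made from the reads (adjusted p = 0.0188). On the protein-coding scale every level is multiplied by 9.17, 10.2 and 9.35 in libraries 1, 2 and 3, so a fixed 1 TPM is a lower bar there. The cause of the other changes was not tested. No paired analysis between groups was possible because there is 1 group. Members and counterparts were paired within each library. Cd3e rests on 4 to 16 counts, and its missed call in edgeR was not traced to depth or to the spread between libraries.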
